A study of Mus musculus with 16 samples.

Results

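Heat shock proteins and folding chaperones were followed in the brains of neonatal mice lacking, or carrying a single intact copy of, a gap junction gene. Members were the spots whose platform gene symbol begins with Hsp, Dnaj, Pdia or Fkbp, is one of Cct2 to Cct8 or Ppia to Ppih, or is Tcp1, Stip1, P4hb, Canx or Calr. This rule took 175 of 28704 spots, for 84 genes. Enough values for a test were present for 77 of these genes, over 148 spots. Of the other 7, Dnaja4 and Ppia had no value on any array, and Dnajb8, Fkbp15, Fkbp2, Fkbp7 and Hspa12b had too few.

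Molecular chaperones bind unfolded or partly folded proteins and keep them from aggregating. Hsp70 proteins do so in cycles of ATP hydrolysis that J proteins start and nucleotide exchange factors end, Hsp90 takes over late folding steps of kinases and receptors, and the ring-shaped chaperonins enclose whole chains such as actin and tubulin. Chaperones of the endoplasmic reticulum (ER) fold secreted and membrane proteins with the help of disulfide isomerases and sugar-binding lectins, and are under the control of the unfolded protein response, while heat shock factors act on the cytosolic and mitochondrial ones. In the developing brain chaperones are abundant in neurons, which make large amounts of membrane and cytoskeletal protein.

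The 4 groups were Cx43 null, Cx43 heterozygous and Cx32 null neonatal brain, each of C57BL mice, and wild type neonatal brain of C57BL/6j mice, with 4 arrays each. Cx43, connexin 43, is encoded by Gja1 and joins astrocytes to each other, and Cx32, connexin 32, is encoded by Gjb1 and is found in oligodendrocytes. The labels give no details of how the alleles were made. Each brain cDNA was hybridised beside a common reference of pooled adult mouse tissues that itself included brain, and a level below is the log2 ratio of brain to that reference after each array was set to a median of 0. A difference is the mean of the line minus the mean of wild type on that scale, with its standard error (SE) from limma, and "lower" and "higher" are used of differences with a Benjamini-Hochberg adjusted p under 0.05 over 14292 transcripts. The log base and the numerator of the ratio are not stated, so sizes hold if the values are log2 and directions hold if brain is the numerator. Whether a sample was 1 animal or a pool is not stated either, so the p-values cover only the spread among these 16 samples. For each transcript that spread is 1 estimate pooled over all 4 groups. The groups were unequal, with a median member SD of 0.41 in wild type and 0.15 to 0.29 in the lines. An SE can thus be too small for a comparison with wild type and too large for 1 between lines. In whole brain, fewer cells of a type and less RNA per cell cannot be told apart.

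Several arrays stood apart. Wild type replicate 1 correlated with the other 15 arrays at Pearson's r of 0.48 to 0.78 over all transcripts, and held the highest wild-type value for 45 of the 69 members with all 4 wild-type values. The array labelled Cx43 null replicate 1 correlated at 0.88 to 0.90 with the other wild-type arrays (0.71 with wild type replicate 1) and at 0.80 to 0.91 with the other Cx43 null arrays, and held the highest Cx43 null value for 47 of 77 members. Gja1, the deleted gene, read -0.60, -1.71, -2.10 and -2.92 on Cx43 null arrays 1 to 4, -1.09, -1.27, -1.25 and -1.86 on Cx43 heterozygous arrays, and 2.47, 1.13, 1.48 and 1.17 on wild-type arrays. The array labelled Cx43 null replicate 1 was the highest of its group, above every Cx43 heterozygous array and below every wild-type array. Gja1 did not pass between Cx43 null and Cx43 heterozygous brain (-0.47 ± 0.37, adjusted p = 0.637), so it does not separate these groups. Against wild type, Gja1 was lower in Cx32 null brain as well (-1.46 ± 0.37, adjusted p = 0.00986), and no spot is named Gjb1. In 3 blocks of neighbouring spots, 1 to 6 arrays were out of step with the rest, which touched 13 member spots.

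More chaperone messages were lower than higher in each line. In Cx43 null brain 12 members were lower and 1 was higher than in wild type, where 6.43% of all transcripts were lower and 4.37% higher. In Cx43 heterozygous brain 33 were lower and 1 higher, against 17.5% and 13.5% of all transcripts; without centring, which put the median of all transcripts at 0.15, the counts were 23 and 4. In Cx32 null brain 31 were lower and 2 higher, against 14.3% and 13.1%. As shares of the 77 tested members, the lower ones were 15.6%, 42.9% and 40.3%, so in each comparison the share of lower members was above that of all transcripts and the share of higher members below it. The same shares of all transcripts stand beside the counts by class, compartment and list below. The median member differed from wild type by -0.42 in Cx43 null, -0.58 in Cx43 heterozygous and -0.50 in Cx32 null brain, against 0.01, -0.02 and -0.03 for all transcripts. The 8654 transcripts with a gene symbol, as all members have, had medians of -0.03, -0.07 and -0.05. Of these, 7.06%, 19.1% and 15.3% were lower and 3.66%, 12.2% and 12.1% higher. The 3 comparisons share the wild-type arrays, so a high wild-type value lowers all of them at once. Among the members, 8 were lower in all 3 lines (Hspa9, Tcp1, Cct7, Dnajc2, Dnajc8, Pdia5, Fkbp1a and Stip1), and 36 were lower in none. For 3 of these 8 the call in Cx43 null brain was lost under over 50% of the alternatives in processing and arrays, namely Cct7 (14 of 21), Tcp1 (12 of 21) and Dnajc8 (11 of 21). Of 75 calls against wild type that were followed through these alternatives, 14 were lost under over 50% of them and 22 under none, and none of the 22 was in Cx43 null brain.

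**Figure D1:**
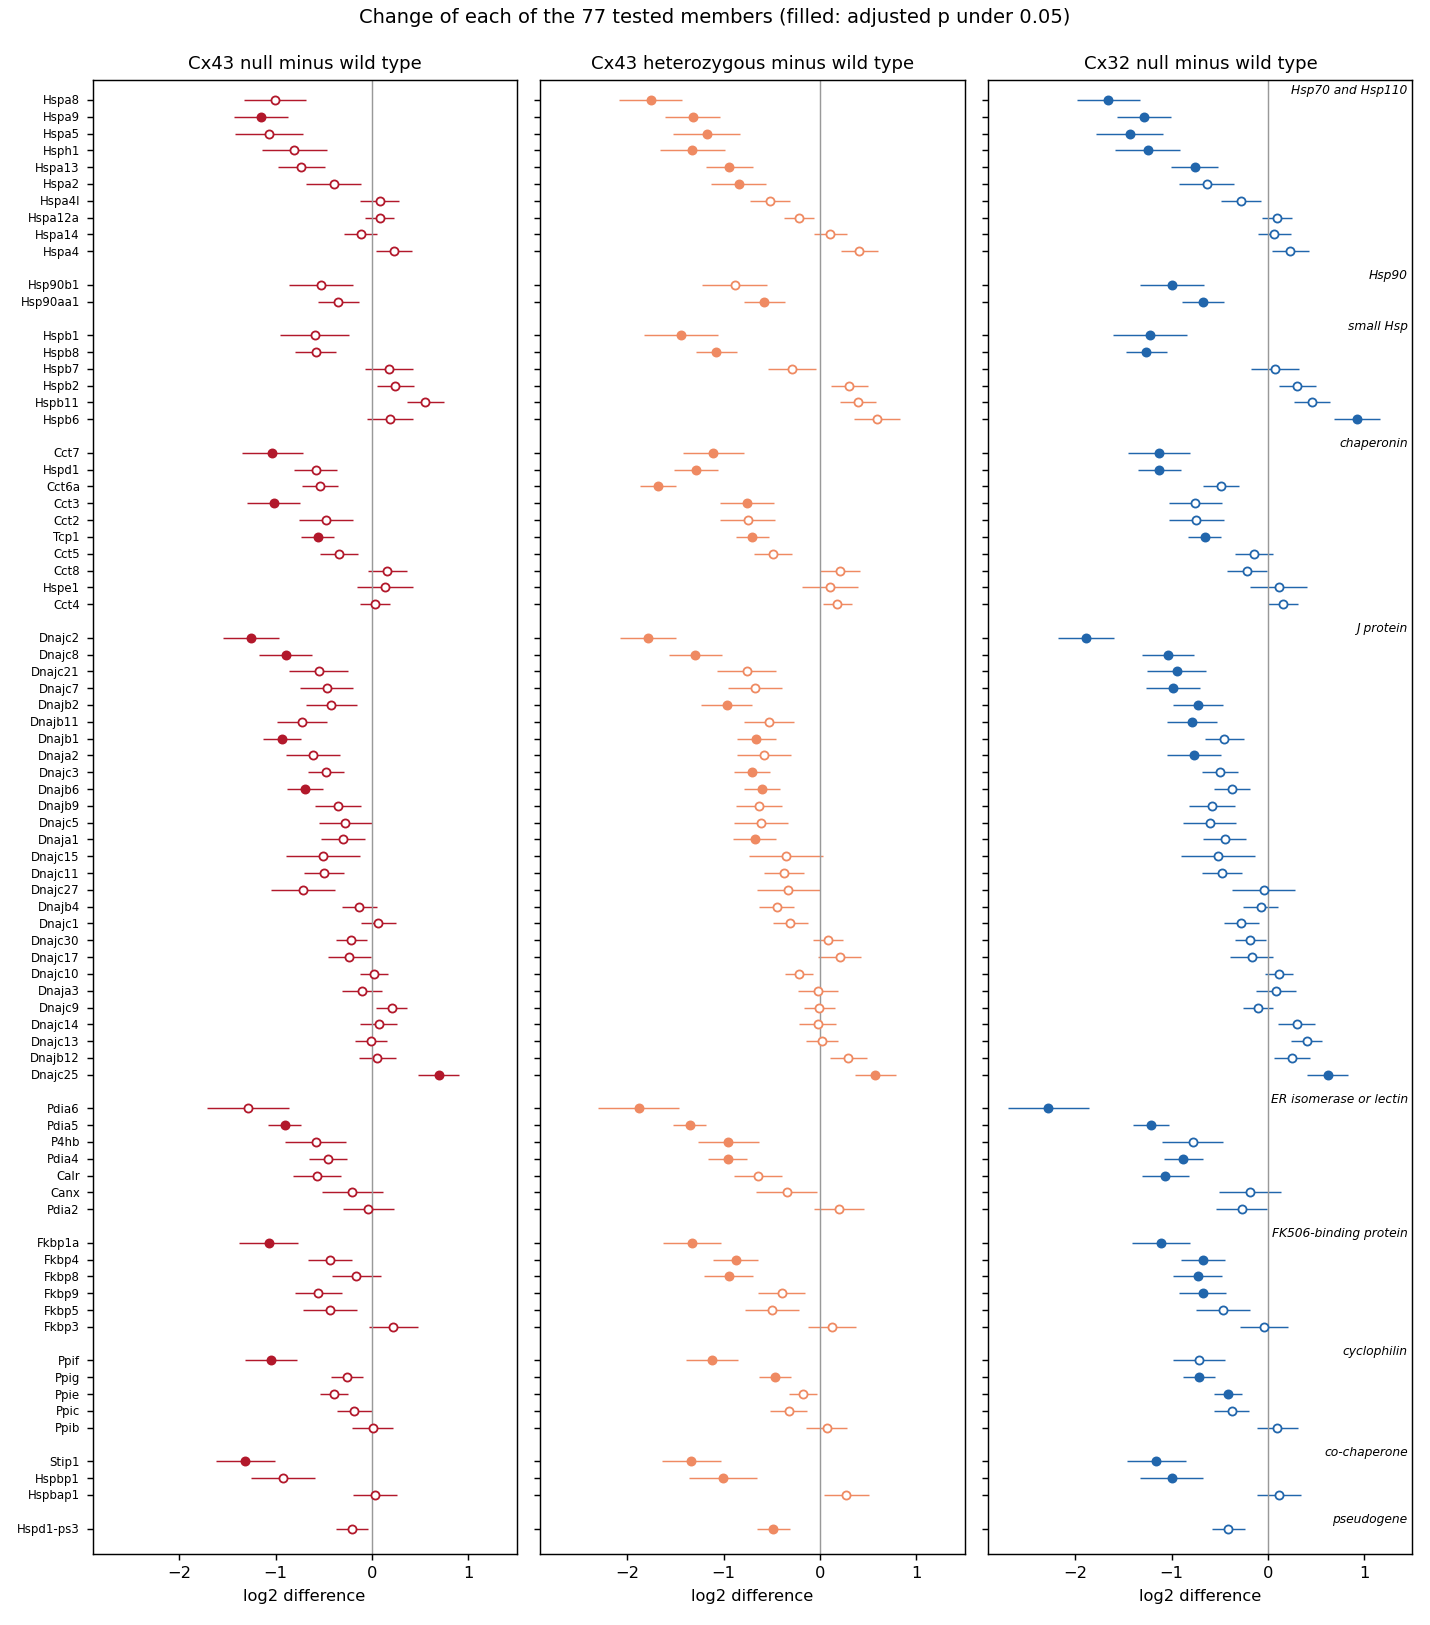
Difference from wild type (log2 scale, horizontal axis) of each of the 77 tested members, by class from top to bottom, for Cx43 null, Cx43 heterozygous and Cx32 null brain. Points are differences of the means of the arrays with a value, 3 or 4 a group. Bars are standard errors, and filled points have an adjusted p under 0.05. Most members lie left of 0, with 12, 33 and 31 filled points there and 1, 1 and 2 filled points to the right.

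On single arrays the member median read 0.00, -0.13, -0.32 and -0.12 in Cx43 null, -0.24, -0.18, -0.19 and -0.22 in Cx43 heterozygous, -0.08, -0.26, -0.29 and -0.39 in Cx32 null, and 0.66, 0.21, 0.05 and 0.18 in wild type brain. All 12 arrays of the lines thus lay below all 4 wild-type arrays, with a gap of 0.04 between the array labelled Cx43 null replicate 1 and wild type replicate 3. Members varied most between wild-type arrays, with a median SD of 0.29 in Cx43 null, 0.15 in Cx43 heterozygous, 0.15 in Cx32 null and 0.41 in wild type brain. The median SD of all transcripts had the same order, with 0.27, 0.20, 0.21 and 0.39. Without wild type replicate 1 the counts of lower and higher members were 7 and 2 in Cx43 null, 28 and 2 in Cx43 heterozygous, and 22 and 3 in Cx32 null brain, and the medians -0.22, -0.40 and -0.39. The shares of all transcripts that were lower and higher were then 4.14% and 1.65%, 16% and 11.6%, and 12.4% and 10.8%. Without the array labelled Cx43 null replicate 1, 22 members were lower and 2 higher in Cx43 null brain, against 10% and 7.12% of all transcripts. Leaving out other arrays moved this count as well. Only 1 member, a lower one, passed once Cx43 null replicate 3 was left out, against 0.595% of all transcripts lower and 0.203% higher. Leaving out wild type replicate 2 gave 3 members, all lower (2.43% and 0.959%). Leaving out Cx43 null replicate 2 gave 4 lower members (2.71% and 0.84%), and leaving out Cx43 null replicate 4 gave 6 lower members (2.71% and 1.37%). Without wild type replicate 4, 22 were lower and 2 higher (10.7% and 10.2%). When the arrays of Cx43 null and wild type were fitted alone, 0 members passed in limma. In that fit 23 of 77 had an unadjusted p under 0.05 (29.9%), as did 3061 of 14292 transcripts (21.4%).

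**Figure D2:**
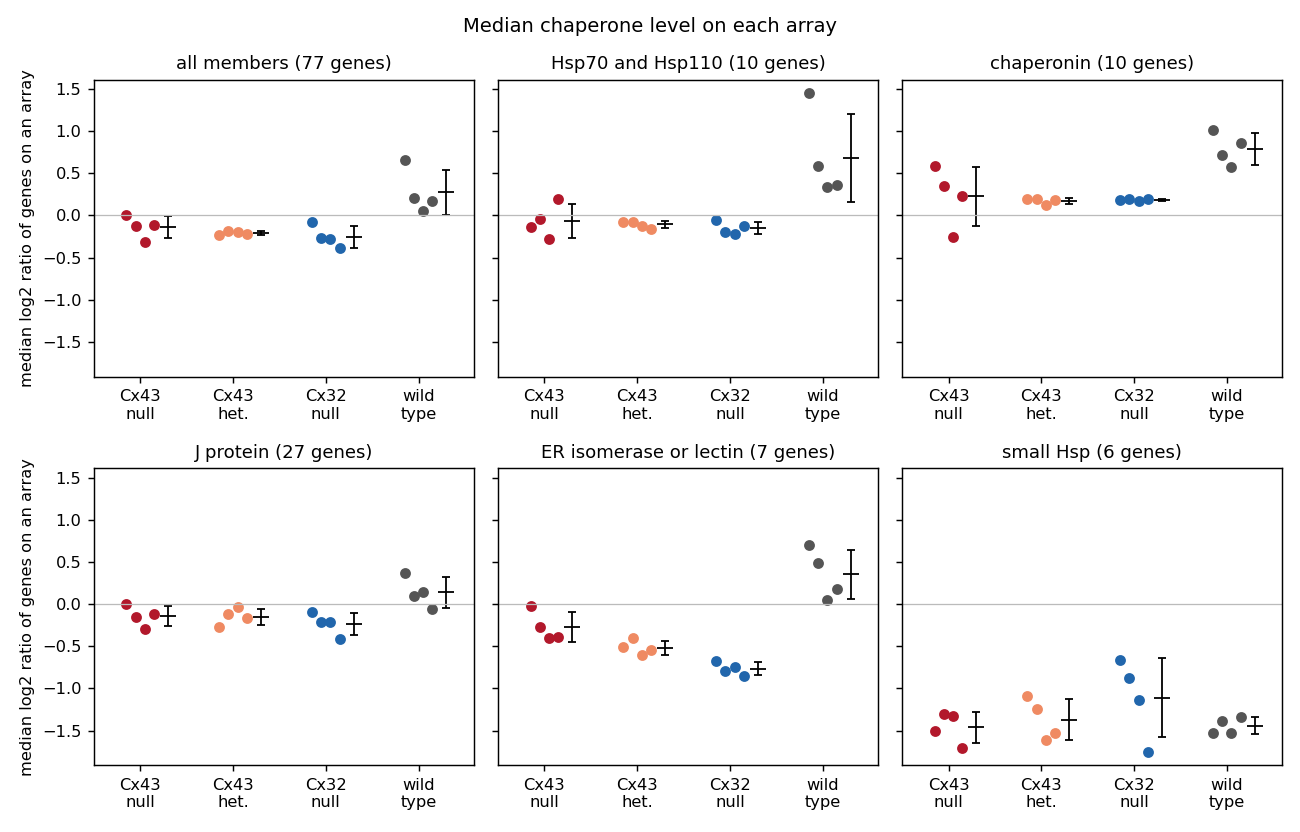
Median log2 ratio over the genes of a class on each array (vertical axis) for all members and for 5 classes, with 1 point an array and the groups Cx43 null, Cx43 heterozygous, Cx32 null and wild type from left to right. Black marks are the mean and SD of the 4 arrays. For all members, wild-type arrays lie between 0.05 and 0.66 and the arrays of the lines between -0.39 and 0.00; the small heat shock proteins overlap between groups.

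Among the Hsp70 and Hsp110 proteins, 1 of 10 was lower in Cx43 null, 6 in Cx43 heterozygous and 5 in Cx32 null brain, and none was higher. Hspa8, the constitutive cytosolic Hsp70 that also strips clathrin from vesicles, read 2.38, 0.97, 0.78 and 0.80 on Cx43 null arrays, 0.34, 0.48, 0.66 and 0.43 on Cx43 heterozygous arrays, 0.70, 0.72, 0.50 and 0.42 on Cx32 null arrays, and 3.15, 2.28, 1.89 and 1.63 on wild-type arrays. The Cx43 heterozygous and Cx32 null arrays lay below all wild-type arrays, while the array labelled Cx43 null replicate 1 lay inside the wild-type range. The differences were -1.76 ± 0.33 in Cx43 heterozygous (3.38-fold lower, adjusted p = 0.0012), -1.65 ± 0.33 in Cx32 null (adjusted p = 0.00254) and -1.01 ± 0.33 in Cx43 null brain (adjusted p = 0.0544, not passing).

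Hspa5, the ER Hsp70 also called BiP, read -0.61, -0.56, -1.42 and -0.36 in Cx43 null, -0.82, -0.76, -1.0 and -0.78 in Cx43 heterozygous, -0.91, -1.27, -1.15 and -1.06 in Cx32 null, and 1.67, 0.25, -0.75 and 0.16 in wild type brain. Wild type replicate 3 lay inside the range of the Cx43 null arrays and just above the highest Cx43 heterozygous array. The difference passed in Cx43 heterozygous (-1.18 ± 0.35, adjusted p = 0.0175) and Cx32 null brain (-1.43 ± 0.35, adjusted p = 0.00759). In Cx43 null brain it was -1.07 ± 0.35 (adjusted p = 0.0553). Hspa9, the mitochondrial Hsp70 or mortalin, was lower in all 3 lines, with differences of -1.15 in Cx43 null, -1.32 in Cx43 heterozygous and -1.28 in Cx32 null brain. Its 3 spots differed: in Cx43 heterozygous brain they read -1.61, -2.38 and 0.03, and one of the 3 lies in a block where wild type replicate 4 was out of step.

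Hsph1, an Hsp110 protein that exchanges the nucleotide of Hsp70, was lower in Cx43 heterozygous (-1.32 ± 0.34, adjusted p = 0.00759) and Cx32 null brain (-1.25 ± 0.34, adjusted p = 0.0127). Hspa13, a microsomal Hsp70, was lower in the same pair of lines, with differences of -0.94 and -0.76, and Hspa2, best known from testis, was lower in Cx43 heterozygous brain (-0.84). The other 4 members, Hspa4, Hspa4l, Hspa12a and Hspa14, had differences of -0.52 to 0.41 and did not pass in any line. The 2 spots of Hspa4, an Hsp110 relative, went opposite ways, with -0.26 and 1.08 in Cx43 heterozygous brain, so its mean of 0.41 ± 0.19 describes neither.

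Both Hsp90 genes on the array were lower in Cx32 null brain, and 1 of them in Cx43 heterozygous brain. Hsp90aa1, the inducible cytosolic Hsp90, read 1.08, 0.62, 0.58 and 0.68 in Cx43 null, 0.40, 0.18, 0.77 and 0.69 in Cx43 heterozygous, 0.44, 0.57, 0.27 and 0.37 in Cx32 null, and 1.68, 0.96, 0.57 and 1.13 in wild type brain. Wild type replicate 3 lay inside the Cx43 heterozygous range and level with the highest Cx32 null array. The differences were -0.58 ± 0.21 (adjusted p = 0.0481) in Cx43 heterozygous, -0.67 ± 0.21 (adjusted p = 0.0284) in Cx32 null and -0.35 ± 0.21 (adjusted p = 0.276) in Cx43 null brain. The Cx43 heterozygous call was lost under 15 of 21 alternatives, with differences of -0.75 to -0.06. Its 5 spots ran from -1.34 to -0.06 in Cx43 heterozygous brain, where the spot at -1.34 is of a different clone. Among the other spots, 1 lies in the block where 6 arrays were out of step. Another lies in a block where wild type replicate 3 was. Hsp90b1, the ER Hsp90 or Grp94, was lower in Cx32 null brain (-1.0 ± 0.33, adjusted p = 0.035), with -0.89 ± 0.33 (adjusted p = 0.0511) in Cx43 heterozygous brain. Hsp90b1 read -0.46, -0.67, -1.24 and -1.24 in Cx32 null and 1.40, -0.45, -0.78 and 0.19 in wild type brain. Wild type replicate 3 lay inside the Cx32 null range and replicate 2 just above it. The Cx32 null calls of Hsp90aa1 and Hsp90b1 were each lost under 8 of 21 alternatives. With 1 array left out at a time they held in 5 and 3 of 8 fits. No spot carries the symbol Hsp90ab1.

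The co-chaperone Stip1, or Hop, which links Hsp70 to Hsp90, was lower in all 3 lines. It read 0.95, 0.03, -0.34 and 0.16 in Cx43 null, 0.06, 0.00, 0.27 and 0.37 in Cx43 heterozygous, 0.39, 0.37, 0.41 and 0.24 in Cx32 null, and 2.24, 1.80, 1.56 and 0.45 in wild type brain. Every array of Cx43 heterozygous and Cx32 null brain lay below all wild-type arrays, and wild type replicate 4 was the closest to them. These values are of 1 tested spot; the other spot had too few values for a test and read 0.35 to 0.74 in Cx43 null, 1.21 and 1.17 on the 2 Cx43 heterozygous arrays with a value, -0.32 to 0.62 in Cx32 null, and -0.02 to 0.68 in wild type brain. The differences at the tested spot were -1.31 ± 0.30 (adjusted p = 0.0192) in Cx43 null, -1.33 ± 0.30 (adjusted p = 0.00431) in Cx43 heterozygous and -1.16 ± 0.30 (adjusted p = 0.0115) in Cx32 null brain, and came as close to 0 as -0.60, -0.56 and -0.63 under the alternatives. Hspbp1, a nucleotide exchange factor of Hsp70, was lower in Cx43 heterozygous (-1.01) and Cx32 null brain (-1.0), with the call lost under 11 and 10 of 20 alternatives, and Hspbap1 passed in no line.

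Of the 10 chaperonin genes, 3 were lower in Cx43 null, 5 in Cx43 heterozygous and 3 in Cx32 null brain. Cct6a, the zeta subunit of the cytosolic TRiC ring, was the only member whose difference between lines passed. It read 1.33, 1.5, 0.86 and 1.75 in Cx43 null, 0.20, 0.21, 0.19 and 0.28 in Cx43 heterozygous, 1.54, 1.44, 1.28 and 1.40 in Cx32 null, and 2.25, 1.85, 1.94 and 1.56 in wild type brain. The 4 Cx43 heterozygous arrays were the lowest of all 16. The difference from wild type was -1.68 ± 0.19 (3.2-fold lower, adjusted p = 5.55e-05) in Cx43 heterozygous brain, and -0.54 ± 0.19 (adjusted p = 0.0704) and -0.49 ± 0.19 (adjusted p = 0.0645) in Cx43 null and Cx32 null brain. Cx43 null minus Cx43 heterozygous brain was 1.14 ± 0.19 (adjusted p = 0.00682), and Cx43 heterozygous minus Cx32 null brain was -1.19 ± 0.19 (adjusted p = 0.00358). Cct6a has 1 tested spot, and these 2 differences passed under all 21 alternatives tried for each. Not all 21 could test it. Choosing members by updated gene symbol repeated the main fit, and choosing or leaving out spots kept the values of Cct6a.

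The other TRiC subunits passed in no comparison between the lines. Tcp1, the alpha subunit, was lower in all 3 lines, with differences of -0.56, -0.70 and -0.66 (Cx43 null, Cx43 heterozygous, Cx32 null), but its 3 spots read -1.56, -0.64 and 0.08 in Cx43 heterozygous brain. Cct7, the eta subunit, was lower in all 3, with differences of -1.03, -1.11 and -1.13. As given above, the Cx43 null calls of both were lost under over 50% of the alternatives. Cct3, the gamma subunit, was lower in Cx43 null (-1.02 ± 0.28, adjusted p = 0.0317) and Cx43 heterozygous brain (-0.76 ± 0.28, adjusted p = 0.0459), with -0.75 ± 0.28 (adjusted p = 0.0517) in Cx32 null brain, and its Cx43 null and Cx43 heterozygous calls were lost under 7 and 11 of 21 alternatives. Cct2, Cct4, Cct5 and Cct8 passed in no line, with differences of -0.75 to 0.21, and the 2 spots of Cct8 read 1.47 and -1.05 in Cx43 heterozygous brain.

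The mitochondrial chaperonin Hspd1 (Hsp60) and its lid Hspe1 (Hsp10) lie head to head on chromosome 1 and share a promoter. In GRCm38.p6 the start of Hspe1 (55088148, plus strand) lies 216 bases from that of Hspd1 at 55087932 (minus strand). Another listed start of Hspd1, at 55088243, lies on the other side of the Hspe1 start. Distances for Hspd1 here are from the start at 55087932. Hspd1, over 4 spots, read 1.47, 0.72, 0.10 and 0.34 in Cx43 null, 0.05, -0.06, -0.01 and -0.15 in Cx43 heterozygous, 0.17, 0.08, 0.14 and 0.08 in Cx32 null, and 1.22, 1.43, 1.33 and 1.00 in wild type brain. The Cx43 heterozygous and Cx32 null arrays all lay below wild type, and the array labelled Cx43 null replicate 1 lay above it. Hspd1 was lower in Cx43 heterozygous (-1.29 ± 0.22, adjusted p = 0.000798) and Cx32 null brain (-1.13 ± 0.22, adjusted p = 0.00268), with negative differences at all 4 spots, and the difference in Cx43 null brain was -0.59 ± 0.22 (adjusted p = 0.0907). Hspe1, with 1 tested spot, read -0.27, -0.15, -0.35 and -0.49 in Cx43 null, -0.24, -0.31, -0.45 and -0.39 in Cx43 heterozygous, -0.10, -0.34, -0.41 and -0.51 in Cx32 null, and 0.83, -0.97, -1.08 and -0.59 in wild type brain. Its differences were 0.14, 0.10 and 0.11 with an SE of 0.29, and wild type replicate 1 lay above and the other wild-type arrays below every array of the lines. The difference between the 2 genes was not tested.

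**Figure D3:**
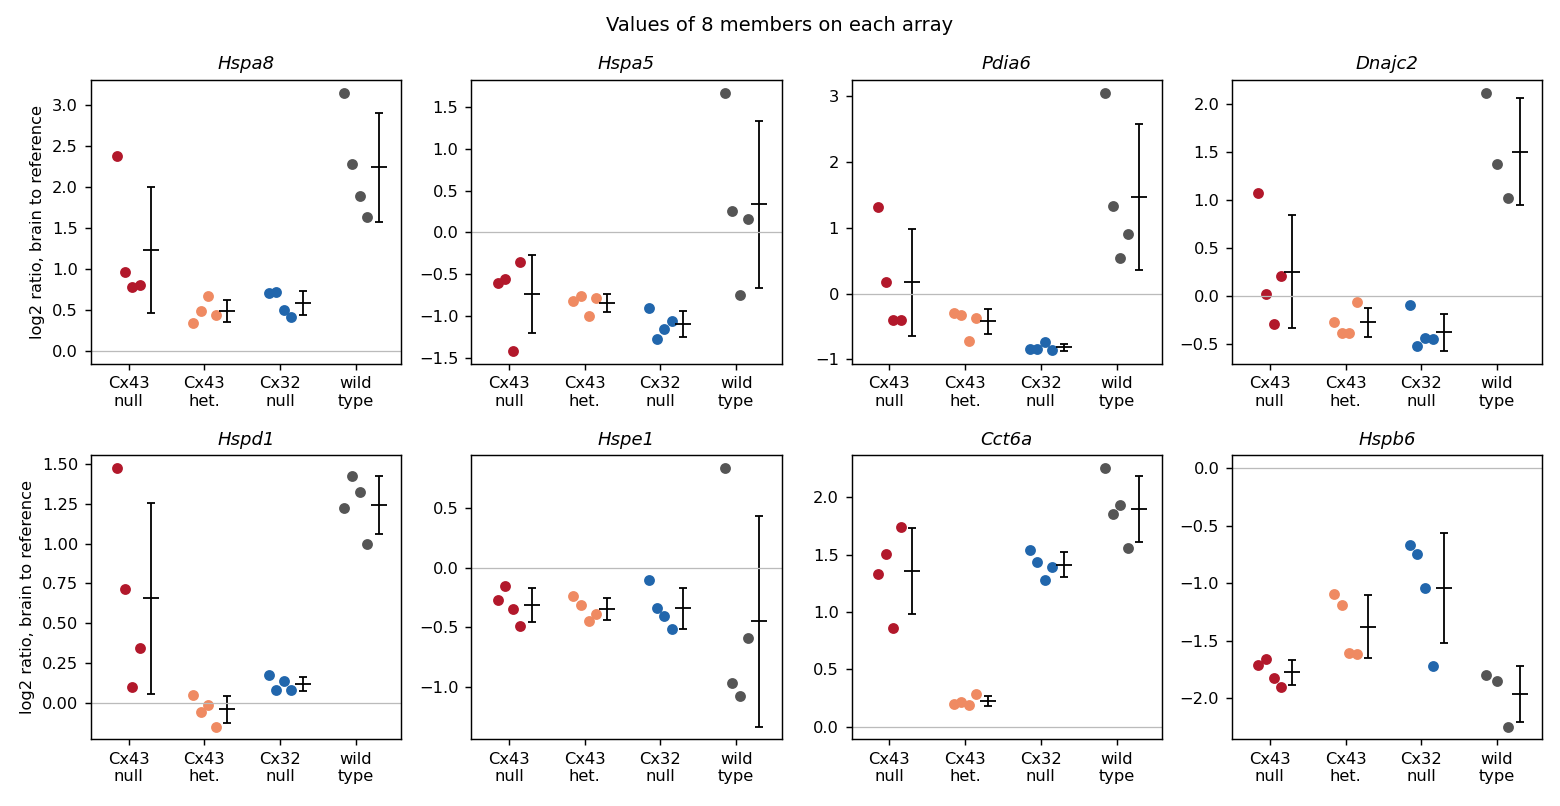
Log2 ratio of brain to reference (vertical axis) of 8 members on each array, with 1 point an array and the groups Cx43 null, Cx43 heterozygous, Cx32 null and wild type from left to right. Black marks are means and SDs of the arrays with a value, 4 a group except 3 in wild type for Dnajc2 and Hspb6. Cct6a in Cx43 heterozygous brain lies at 0.19 to 0.28, below all other arrays, and Hspd1 in Cx43 heterozygous brain at -0.15 to 0.05, against 1.00 to 1.43 in wild type.

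The promoters of these genes were searched for the binding motif of heat shock factors, which is built of inverted units, as GAANNTTC or TTCNNGAA (2 units, each the same on both strands). In RefSeq windows of 250 bases before to 50 after the start site in GRCm38.p6, 15 of the 64 members with a window held it (23.4%), against 13.9% of the 6924 tested genes with a window and 15.1% of all 32851 windows. A run of 3 units in turn, each 2 bases apart, was looked for after the first search and includes its matches. It was found for 4 members (6.25%), against 0.52% of tested genes. These 4 were Hspd1, Hspe1, Hsph1 and Dnajb6. The windows of Hspe1 and Hspd1 overlap, and so do their matches, which lie on opposite strands and are not the same 3 units. Those of Hspe1 (chr1:55088056-55088084, plus strand, 71 bases before its start), Hspd1 (chr1:55088051-55088079, minus strand, 126 bases before its start) and Dnajb6 (chr5:29735844-29735872, plus strand) are shown in the direction of transcription with the 3 units in capitals, so that the differences of the genes that hold them can be set side by side.
Hspe1: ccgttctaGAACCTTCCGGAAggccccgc
Hspd1: gccttccgGAAGGTTCTAGAAcggaccgt
Dnajb6: agctccgaGAATCTTCCGGAAcgctagac
Hspd1 and Hsph1 were lower in Cx43 heterozygous and Cx32 null brain, Dnajb6 in Cx43 null and Cx43 heterozygous brain, and Hspe1 in none.

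Of the 27 J proteins, 4 were lower in Cx43 null, 7 in Cx43 heterozygous and 7 in Cx32 null brain, and Dnajc25 was higher in all 3. Dnajc2, a ribosome-associated J protein also called zuotin related factor, had the largest differences of the class. It read 1.08, 0.02, -0.29 and 0.20 in Cx43 null, -0.27, -0.39, -0.39 and -0.06 in Cx43 heterozygous, -0.10, -0.53, -0.44 and -0.45 in Cx32 null, and 2.12, 1.37 and 1.02 on the 3 wild-type arrays with a value. Only the array labelled Cx43 null replicate 1 reached the wild-type range. The differences were -1.25 ± 0.29 (adjusted p = 0.0196) in Cx43 null, -1.78 ± 0.29 (adjusted p = 0.000565) in Cx43 heterozygous and -1.89 ± 0.29 (adjusted p = 0.000786) in Cx32 null brain.

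Dnajc8, a nuclear J protein of the spliceosome, was lower in all 3 lines, with differences of -0.90, -1.29 and -1.04 (Cx43 null, Cx43 heterozygous, Cx32 null), the Cx43 null one being among the less stable calls. Dnajb1, or Hsp40, the main partner of inducible Hsp70, read -1.09, -1.51, -1.56 and -0.91 in Cx43 null, -0.91, -0.77, -1.16 and -1.13 in Cx43 heterozygous, -0.85, -0.76, -0.35 and -1.17 in Cx32 null, and -0.23, -0.22, -0.63 and -0.26 in wild type brain. All Cx43 null and Cx43 heterozygous arrays lay below all wild-type arrays, and 1 Cx32 null array did not. Dnajb1 was lower in Cx43 null (-0.93 ± 0.20, adjusted p = 0.0149) and Cx43 heterozygous brain (-0.66 ± 0.20, adjusted p = 0.0201), with -0.45 ± 0.20 (adjusted p = 0.1) in Cx32 null brain. Dnajb6, a suppressor of polyglutamine aggregation, was lower in the same pair of lines (-0.69 and -0.60, lost under 8 and 9 of 21 alternatives), and neither gene passed between Cx43 null and Cx32 null brain.

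Dnaja1, a cytosolic partner of Hspa8, was lower in Cx43 heterozygous brain (-0.68 ± 0.22, adjusted p = 0.0298), with -0.30 and -0.45 in Cx43 null and Cx32 null brain. Dnajb2, a neuronal J protein, was lower in Cx43 heterozygous (-0.97) and Cx32 null brain (-0.73), Dnajc3, the ER protein p58IPK, in Cx43 heterozygous brain (-0.71), and Dnajc7, Dnajc21, Dnajb11 and Dnaja2 in Cx32 null brain (-0.98, -0.94, -0.79 and -0.77). The Cx32 null call of Dnajb2 was lost under 15 of 20 alternatives, and the Cx43 heterozygous call of Dnaja1 under 10 of 21. The Cx32 null call of Dnaja2 was lost under 9 of 21, and held in 2 of 8 fits with 1 array left out. The Cx32 null calls of Dnajc21 and Dnajb11 were not followed. Wild type replicate 1 read 1.63 for Dnajc21 and 1.74 for Dnaja2. The other wild-type arrays read -0.21 to -0.14 and -0.07 to 0.27. The 2 spots of Dnaja2 read -1.77 and 0.23 in Cx32 null brain. Dnajc25, the member that was higher in each line, read -0.87, -0.73, -0.29 and -0.68 in Cx43 null, -0.70, -0.74, -0.64 and -0.96 in Cx43 heterozygous, -0.44, -0.63, -0.55 and -1.23 in Cx32 null, and -1.11, -1.30 and -1.59 on the 3 wild-type arrays with a value. Its differences of 0.69 ± 0.21, 0.57 ± 0.21 and 0.62 ± 0.21 passed narrowly (adjusted p = 0.0484, 0.0499 and 0.04) and were lost under 11, 12 and 9 of 20 alternatives.

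Among the 7 ER isomerases and lectins, 1 was lower in Cx43 null, 4 in Cx43 heterozygous and 4 in Cx32 null brain. Pdia6, a disulfide isomerase that also acts on the stress sensor Ire1, had the largest differences of any member in Cx43 heterozygous and Cx32 null brain. It read 1.31, 0.17, -0.41 and -0.40 in Cx43 null, -0.29, -0.32, -0.71 and -0.37 in Cx43 heterozygous, -0.84, -0.84, -0.74 and -0.85 in Cx32 null, and 3.05, 1.33, 0.54 and 0.91 in wild type brain. Both Cx43 heterozygous and Cx32 null brain lay below all wild-type arrays. The differences were -1.88 ± 0.42 (adjusted p = 0.00385) in Cx43 heterozygous, -2.28 ± 0.42 (4.85-fold lower, adjusted p = 0.00191) in Cx32 null and -1.29 ± 0.42 (adjusted p = 0.0559) in Cx43 null brain.

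Pdia5, another disulfide isomerase, was lower in all 3 lines. It read -0.51, -0.88, -0.85 and -0.96 in Cx43 null, -1.02, -1.33, -1.32 and -1.32 in Cx43 heterozygous, -0.82, -1.38 and -1.12 on the 3 Cx32 null arrays with a value, and 0.35, 0.04, -0.08 and 0.10 in wild type brain. No array of a line, that labelled Cx43 null replicate 1 included, reached the wild-type range. The differences were -0.91 ± 0.17 (adjusted p = 0.0102) in Cx43 null, -1.35 ± 0.17 (adjusted p = 0.000143) in Cx43 heterozygous and -1.21 ± 0.19 (adjusted p = 0.000802) in Cx32 null brain.

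Pdia4 was lower in Cx43 heterozygous (-0.96) and Cx32 null brain (-0.88). Calr, the lectin calreticulin, was lower in Cx32 null brain (-1.06 ± 0.25, adjusted p = 0.0059), with -0.64 ± 0.25 (adjusted p = 0.0552) in Cx43 heterozygous brain. P4hb, the classical protein disulfide isomerase, was lower in Cx43 heterozygous brain (-0.95 ± 0.32, adjusted p = 0.0303), where wild type replicate 1 at 2.03 stood above the other wild-type arrays at 0.05 to 0.30. Canx, the membrane lectin calnexin, passed in no line (-0.21, -0.35 and -0.19, SE 0.32), nor did Pdia2. No spot carries the symbol Pdia3.

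The ER stress response element is the sequence through which Atf6 and Xbp1 act on ER chaperone genes, written as CCAAT, any 9 bases and CCACG. It was found on either strand in the windows of 6 of 64 members (9.38%), against 0.274% of the 6924 tested genes with a window and 0.119% of all windows. The 6 are shown in the direction of transcription with the element in capitals, since they are the members of the ER whose differences can be set beside a known control sequence. The element of Calr and Hsp90b1 lies on the opposite strand.
Hspa5: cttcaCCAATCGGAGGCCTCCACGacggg
Pdia6: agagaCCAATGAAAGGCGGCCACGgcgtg
Dnajc3: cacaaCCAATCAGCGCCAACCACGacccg
Canx: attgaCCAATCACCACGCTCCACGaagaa
Calr: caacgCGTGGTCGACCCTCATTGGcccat
Hsp90b1: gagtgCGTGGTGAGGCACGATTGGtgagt
They lie at chr2:34772020-34772048 (plus), chr12:17266486-17266514 (plus), chr14:118937822-118937850 (plus), chr11:50325795-50325823 (minus), chr8:84847070-84847098 (minus) and chr10:86705528-86705556 (minus), between 46 and 143 bases before the start site. Hspa5 and Pdia6 were lower in Cx43 heterozygous and Cx32 null brain, Dnajc3 in Cx43 heterozygous brain, Calr and Hsp90b1 in Cx32 null brain, and Canx in none. Pdia5 and Pdia4, which were lower in both of these lines, hold no such letters in their windows.

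Sorted by compartment, a grouping made after the values were known, 17 members of the ER had medians of -0.53, -0.64 and -0.76 in Cx43 null, Cx43 heterozygous and Cx32 null brain, with 1, 7 and 9 lower and none higher. The 8 members of mitochondria had medians of -0.50, -0.36 and -0.50 with 2, 3 and 2 lower, and the other 52 had medians of -0.35, -0.55 and -0.45 with 9, 23 and 20 lower. Of all transcripts 6.43%, 17.5% and 14.3% were lower. In Cx43 null brain the 1 lower member of 17 in the ER was near the share of all transcripts. The other 52 are the remainder and not 1 compartment.

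Among the FK506-binding proteins, which are peptidyl-prolyl isomerases, 1, 3 and 4 of 6 were lower in Cx43 null, Cx43 heterozygous and Cx32 null brain. Fkbp1a, or FKBP12, the target of FK506 and rapamycin, was lower in all 3, with differences of -1.07, -1.32 and -1.11. Wild type replicate 1 read 2.33, against 0.57 to 0.72 for the other wild-type arrays, and the lines lay between -0.59 and 0.29. Fkbp4 and Fkbp8, co-chaperones of Hsp90, were lower in Cx43 heterozygous (-0.88 and -0.95) and Cx32 null brain (-0.67 and -0.73), and Fkbp9, of the ER, in Cx32 null brain (-0.68). In Cx32 null brain the calls of Fkbp4, Fkbp8 and Fkbp9 were lost under 11, 12 and 12 of 21 alternatives. Fkbp3 and Fkbp5 passed in no line.

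Of the 5 cyclophilins, the other family of prolyl isomerases, 1, 2 and 2 were lower. Ppif, or cyclophilin D, which regulates the mitochondrial permeability transition pore, was lower in Cx43 null (-1.05 ± 0.27, adjusted p = 0.025) and Cx43 heterozygous brain (-1.12 ± 0.27, adjusted p = 0.00552), with -0.71 ± 0.27 (adjusted p = 0.0558) in Cx32 null brain. Ppig, a nuclear cyclophilin, was lower in Cx43 heterozygous (-0.47) and Cx32 null brain (-0.72). The Cx43 heterozygous call of Ppig was lost under 14 of 21 alternatives, with differences as near 0 as -0.09 and an adjusted p up to 0.877. Ppie was lower in Cx32 null brain (-0.41 ± 0.15, adjusted p = 0.0451), where its 2 spots read 0.24 and -1.07; the call was lost under 11 of 21 alternatives and the sign turned under 1. Ppib, of the ER, differed by 0.01, 0.07 and 0.10, and neither it nor Ppic passed.

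The small heat shock proteins are ATP-independent holdases. Of 6 genes put in this class by symbol and not by function, Hspb11 among them, none passed in Cx43 null brain. In Cx43 heterozygous brain 2 were lower, and in Cx32 null brain 2 were lower and 1 higher. Hspb8 read -1.93, -2.10, -1.95 and -2.61 in Cx43 null, -2.62, -2.47, -2.86 and -2.60 in Cx43 heterozygous, -2.87, -3.16, -2.25 and -3.0 in Cx32 null, and -1.29, -1.51, -1.64 and -1.81 in wild type brain. All arrays of the lines lay below all wild-type arrays, and the difference passed in Cx43 heterozygous (-1.08 ± 0.21, adjusted p = 0.00169) and Cx32 null brain (-1.26 ± 0.21, adjusted p = 0.00111), with -0.59 ± 0.21 (adjusted p = 0.075) in Cx43 null brain. Hspb1, or Hsp25, was lower in Cx43 heterozygous (-1.44 ± 0.38, adjusted p = 0.0112) and Cx32 null brain (-1.23 ± 0.38, adjusted p = 0.0282), on 3 arrays each. At group means of -4.12 to -2.68 it was far less abundant in brain than in the reference, which held heart and lung. Its Cx43 heterozygous and Cx32 null calls were lost under 5 and 9 of 20 alternatives, with differences as near 0 as -0.40 and -0.24.

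Hspb6, or Hsp20, known from muscle, was higher in Cx32 null brain. It read -1.71, -1.66, -1.83 and -1.90 in Cx43 null, -1.09, -1.19, -1.61 and -1.61 in Cx43 heterozygous, -0.67, -0.74, -1.04 and -1.71 in Cx32 null, and -1.80, -1.85 and -2.25 on the 3 wild-type arrays with a value. All Cx32 null arrays lay above all wild-type arrays. The differences were 0.92 ± 0.24 (adjusted p = 0.0111) in Cx32 null, 0.59 ± 0.24 (adjusted p = 0.0695) in Cx43 heterozygous and 0.19 ± 0.24 (adjusted p = 0.616) in Cx43 null brain. Hspb2, Hspb7 and Hspb11 passed in no line. The pseudogene Hspd1-ps3 was lower in Cx43 heterozygous brain (-0.48), and its sequence can share signal with Hspd1.

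Between the lines only Cct6a passed. Cx43 null minus Cx43 heterozygous brain had 1 higher member, Cct6a, and 0 lower, against 0.77% higher and 0.686% lower of all transcripts. Cx43 heterozygous minus Cx32 null brain had Cct6a lower and 0 higher, against 0.329% and 0.903%. Cx43 null minus Cx32 null brain had 0 members in either direction in limma, against 0.014% lower and 0.07% higher of all transcripts, and 10 of 77 had an unadjusted p under 0.05 (13%), as did 1303 of 14292 transcripts (9.12%). The median member differed by 0.14, -0.04 and 0.10 in these 3 comparisons, in the order given.

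Spots of 1 gene did not always agree. Of 43 genes with at least 2 tested spots, all spots were below wild type for 23 in Cx43 null, 23 in Cx43 heterozygous and 25 in Cx32 null brain, all above for 1, 4 and 2, and the signs differed for 19, 16 and 16. Spots of different clones can hold different parts of a gene or of its relatives, and which one follows the gene was not tested. Where the same clone was spotted several times, the SD between its spots on an array was 0.28 for Cct3 (4 spots), 0.33 for Hspd1 (3 spots) and 0.37 for Hsp90aa1 (4 spots). The SD between arrays of the clone's mean was 0.47, 0.48 and 0.17 in Cx43 null, 0.12, 0.10 and 0.29 in Cx43 heterozygous, 0.08, 0.06 and 0.16 in Cx32 null, and 0.71, 0.19 and 0.65 in wild type brain, in the same order. The repeated spots of Hspd1 and Hsp90aa1 include some in blocks out of step.

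**Figure D4:**
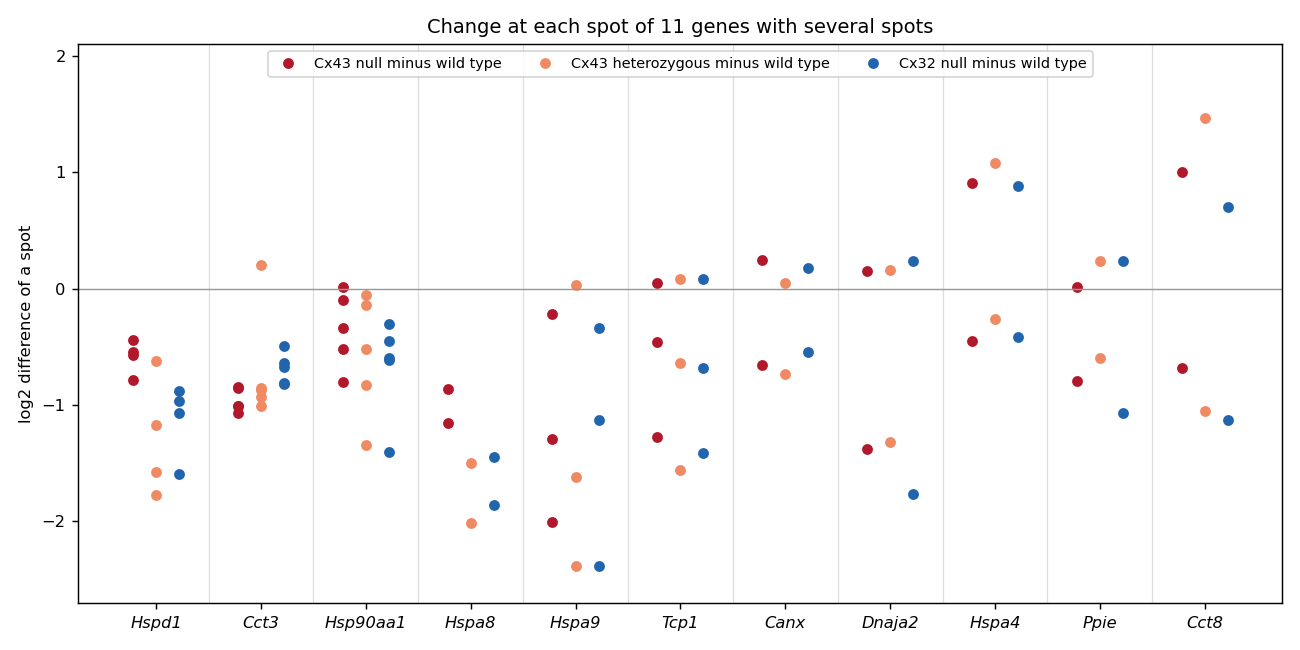
Difference from wild type (log2 scale, vertical axis) at each tested spot of 11 members with several spots, for Cx43 null, Cx43 heterozygous and Cx32 null brain from left to right within a gene. Each point is 1 spot, from the means of its arrays. All spots of Hspd1 and Hspa8 lie below 0, and the 2 spots of Hspa4, Cct8 and Dnaja2 lie on opposite sides of 0.

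Partners of these chaperones that the rule did not take were examined as lists. Of 26 co-chaperones and prefoldin subunits tested, 5, 8 and 6 were lower in Cx43 null, Cx43 heterozygous and Cx32 null brain and 0, 0 and 1 higher, with medians of -0.39, -0.48 and -0.33. Beside this list and the next, 6.43%, 17.5% and 14.3% of all transcripts were lower and 4.37%, 13.5% and 13.1% higher. Bag5, a nucleotide exchange factor, was lower, with differences of -1.71, -2.19 and -2.08, and Ahsa1, which activates the Hsp90 ATPase, was lower with -1.07, -1.50 and -1.26. Stub1, the ubiquitin ligase CHIP that works on Hsp70 clients, was lower, with differences of -1.11, -1.30 and -1.25, and the mitochondrial Clpx and Lonp1, an unfoldase and a protease, were lower in all 3 lines as well.

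Of 18 genes of ER folding and the unfolded protein response, 0, 9 and 4 were lower and 0, 0 and 1 higher, with medians of -0.12, -0.36 and -0.12. Xbp1, its transcription factor, differed by -0.85 ± 0.35 (adjusted p = 0.114) in Cx43 null, -1.21 ± 0.35 (adjusted p = 0.0156) in Cx43 heterozygous and -1.15 ± 0.35 (adjusted p = 0.0236) in Cx32 null brain. Atf4 was lower in Cx43 heterozygous brain (-0.77), and Atf6, Ern1 and Eif2ak3, which encode a sensor each, passed in no line (-0.09 to 0.28). Erp44 was higher in Cx32 null brain (0.79). Of the listed genes Hsf1, Hsf2, Hsf4 and Hsbp1, only Hsbp1 was tested, and it did not pass. Hsbp1 encodes a binding protein of heat shock factors, so no heat shock factor itself was tested.

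Markers of cell types gave the following beside these counts, and their part in the chaperone differences was not tested. Counts run over Cx43 null, Cx43 heterozygous and Cx32 null brain, where 6.43%, 17.5% and 14.3% of all transcripts were lower and 4.37%, 13.5% and 13.1% higher. Of 7 neuronal markers 0, 2 and 2 were lower and 0, 1 and 0 higher, with array medians of 0.94 to 1.62, 1.13 to 1.29, 0.83 to 1.41 and, in wild type, 0.96 to 1.72. Of 3 red blood cell markers 0, 2 and 2 were lower and none higher, with array medians of -2.76 to -1.14, -2.28 to -1.67, -1.93 to -1.54 and, in wild type, -1.55 to -0.39. Of 5 astrocyte markers 0, 2 and 1 were lower and 0, 1 and 0 higher, and of 4 microglial markers 2, 2 and 2 were lower and 0, 2 and 1 higher. Of 6 meningeal markers 2, 2 and 2 were lower and 0, 1 and 0 higher. Of 3 endothelial markers none was lower and 0, 1 and 0 were higher, with median differences of 0.02, 0.42 and 0.28. The 1 oligodendrocyte marker with values was lower in Cx43 heterozygous and Cx32 null brain. Of 8 markers of the reference tissues 0, 2 and 3 were lower, and none of 3 skeletal muscle markers and 1 choroid plexus marker passed in any line. Several lists thus held calls in both directions.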

How the data were processed

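RNA of 16 neonatal mouse brain samples was measured on 2-colour cDNA arrays. The authors deposited 1 log ratio per spot and array, with no intensities; per the labels, Cy3 marked the brain cDNA and Cy5 a reference common to all arrays. The deposited values were read as log2. Log base, numerator, background correction and within-array normalization are not given in the sources used here. Brain over reference was taken as likely, because neuronal markers lay above markers of the reference tissues on 16 of 16 arrays. The labels of wild type replicate 3 carry 2 replicate numbers, and the title was followed.

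Arrays had 21010 to 24819 spots with a value, and 4 arrays a group limit the precision. Each array was centred on its median. Spots with at least 3 values in each group were kept (19951), and spots of a gene were averaged. Group means over all 16 arrays were fitted with limma 3.58.1 (lmFit, eBayes, 2-sided) in R 4.3.3 and 6 contrasts tested, Benjamini-Hochberg adjusted over 14292 transcripts. The fit was tested on simulated data. Symbols come from the platform annotation.

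Members, classes and lists were chosen with earlier results of these data known. Named were 23 fixed members where measured, up to 3 called members with the largest differences of each class and comparison, all members called higher, all called between lines, and members whose spots disagreed in sign; others are named to complete a count. Promoters are RefSeq's, matched by symbol for 64 members. Alternatives covered scaling, missing values, spots, weights, blocks and left-out arrays.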

Additional observations from a re-analysis of the deposited data

Results flagged for a closer look

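Cct6a was flagged because its difference between lines passed the test itself: 1.14 for Cx43 null minus Cx43 heterozygous and -1.19 for Cx43 heterozygous minus Cx32 null brain. The range over alternatives was 0.97 to 1.31 (highest adjusted p 0.0305) and -1.30 to -1.10 (highest adjusted p 0.0158).

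In 17 of 196 groups of 4 arrays, 1 array lay far from the other 3 by Dixon's ratio; chance flags about 1 in 20. Wild type replicate 1 was such an array for Cct2 (2.53, others 1.01 to 1.26), Fkbp1a (2.33, others 0.57 to 0.72) and P4hb (2.03, others 0.05 to 0.30). Wild type replicate 3 was one for Dnajb1 (-0.63, others -0.26 to -0.22). The array labelled Cx43 null replicate 1 was one for Hspa8 (2.38, others 0.78 to 0.97), Hsp90b1 (-0.21, others -0.51) and the Hsp90 median (0.44, others 0.03 to 0.09), and Cx43 null replicate 3 for Cct3 (-0.60, others 0.24 to 0.34).

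The remaining ones lie in groups with small spread. Cx43 heterozygous replicate 1 stood apart for Hspa9 (0.0852), Pdia5 (-1.02) and the median of FK506-binding proteins (-0.0882), and replicate 4 for Dnajc8 (0.52). Cx32 null replicate 1 stood apart for Cct7 (0.0333), Dnajc8 (1.02) and the cyclophilin median (-0.0822), replicate 3 for Pdia6 (-0.74), and replicate 4 for the median of FK506-binding proteins (-0.0289).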

How the results depend on the processing

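The median member difference from wild type stayed negative in all 3 lines under every alternative tried. With single arrays left out it ran from -0.49 to -0.22 in Cx43 null, -0.66 to -0.40 in Cx43 heterozygous and -0.60 to -0.39 in Cx32 null brain, and under the other settings from -0.45 to -0.27, -0.60 to -0.40 and -0.52 to -0.41. Counts of called members depended on the setting more. With single arrays left out they ran from 1 to 24 in Cx43 null, 24 to 37 in Cx43 heterozygous and 21 to 37 in Cx32 null brain (13, 34 and 33 with all arrays). An adjusted p under 0.01 left 0, 18 and 11, the arrays of 2 groups alone 0, 25 and 18, array weights gave 31, 43 and 45, and single spots 33, 67 and 63 of 148. Without the spots of blocks out of step 14, 37 and 35 members passed. Requiring all 16 values left 8 of 64 members in Cx43 null brain. Between lines, array weights gave 8 for Cx43 null minus Cx43 heterozygous, 8 for Cx43 null minus Cx32 null and 2 for Cx43 heterozygous minus Cx32 null, and single spots 3 for the first and 2 for the last; the median of Cx43 null minus Cx43 heterozygous was -0.0117 as deposited, against a median of -0.13 for all transcripts, and 0.0697 to 0.261 with arrays left out. The cause was not tested. Correlations of same-numbered deviations ran from -0.26 to 0.23. Replicate 1 of wild type correlated at 0.16 with replicate 1 of Cx43 null and at 0.155 with replicate 1 of Cx32 null brain. Replicate 1 held the highest value of its group for 45 of 69 members in wild type and 47 of 77 in Cx43 null brain. It did so for 39 of 75 in Cx32 null and 16 of 74 in Cx43 heterozygous brain. The fit with a replicate block gave 15, 36 and 32 called members against wild type. Of 1601 single-gene values under alternatives, 1249 kept direction and side of the threshold, 351 lost the call, and 1 turned: Ppie in Cx32 null brain with only its best-filled spot (0.24, adjusted p = 0.398). The 1249 include the values from choosing members by updated gene symbol, which repeated the main fit and could lose no call. Signal over background is unknown for every spot.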
